A study of Homo sapiens with 4 samples.

Results

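MYC, its partner and antagonists, and the genes that build ribosomes were described as a module of 37 genes in LX-2, a human cell line derived from hepatic stellate cells, which deposit scar matrix in the liver. The members are the rows of the deposited count table whose gene name is on a list of MYC/MAX/MXD, RNA polymerase I, nucleolar and pre-rRNA processing genes. All 37 were found among the 63241 genes of the table, and all 37 were among the 16099 genes with at least 1 count per 1000000 counts (CPM) in at least 1 of the 4 libraries. RNA was sequenced from 4 cultures, 1 per group: TGF-β + BDS4, TGF-β + RVX-208, TGF-β alone, and Control. Every culture was first starved for 24 h in medium with 0.5% serum. TGF-β was given at 20 ng/mL and each compound at 5 µM, both for 24 h, and the cells with TGF-β alone are labelled DMSO. The sources used here do not say whether the control cells received vehicle. The library names end in the numbers 1 (BDS4), 2 (RVX-208), 1 (TGF-β alone) and 3 (control), and whether these mark separate sets of cultures is not stated, so the libraries compared may come from different sets. RVX-208 (apabetalone) inhibits BET proteins, with preference for their second bromodomain. BDS4 is a code name, and the study's title concerns covalent inhibitors of the first bromodomain. The table column of the BDS4 library has a different code, so its group comes from the description of the sample alone.

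MYC is a transcription factor that binds DNA as a pair with MAX, at the E-box sequence CACGTG and its variants. MXD1, MXD4 and MXI1 compete with MYC for MAX and repress from the same sites. MYC is best known for driving ribosome biogenesis: RNA polymerase I transcribes the ribosomal RNA precursor in the nucleolus, small nucleolar ribonucleoproteins (snoRNPs) modify it, and processing factors cut and fold it into the small and large subunits. BET proteins are known as activators of MYC transcription in many cancer lines, and the compound libraries give the levels of MYC and its target pathway under BET inhibition in TGF-β-treated stellate cells.

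The E-box was the sequence feature searched in the members' promoters, and 6 matches are shown, those of members named below for their change with BDS4. RefSeq promoter windows (250 bases before to 50 after the start site, GRCh38.p14) were found for 30 of the 37 members. CACGTG, which reads the same on both strands, was present in a window of 14 of these 30 genes (46.7%), against 8.77% of all 27305 genes in the promoter table and 12.4% of the 11189 genes that also passed the CPM filter. Base composition was not matched in this count. The TATA-box letters TATAAA, searched on the gene's strand, were in 0 of the 30 members, against 8.99% of all genes and 5.65% of those that passed the CPM filter. Of the 14 E-box matches, 12 had their first base within 40 bases of the start site and 9 lay after it. The genes shown are those with CACGTG and a ratio of at least 1.5 either way between BDS4 with TGF-β and TGF-β alone. Each line gives 30 bases on the gene's strand, 5′ to 3′, with the E-box in capitals.
MRTO4: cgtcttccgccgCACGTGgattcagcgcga
GNL3: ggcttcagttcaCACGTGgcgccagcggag
MXD4: gggccgggccacCACGTGctgttgctaagc
GAR1: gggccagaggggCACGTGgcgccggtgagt
BYSL: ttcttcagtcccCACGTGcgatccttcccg
UTP20: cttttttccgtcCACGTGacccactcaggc
These windows lie at chr1:19251807-19251836 (MRTO4, plus strand), chr3:52686026-52686055 (GNL3, plus strand), chr4:2262330-2262359 (MXD4, minus strand), chr4:109815781-109815810 (GAR1, plus strand), chr6:41921515-41921544 (BYSL, plus strand) and chr12:101280083-101280112 (UTP20, plus strand). Positions here count the start site as 1. The first base of the E-box stood at 15 in MRTO4, 7 in GNL3, 32 in GAR1 and 29 in BYSL. Those of MXD4 and UTP20 lay before the start site, at -238 and -10. A match describes the letters of the window and is no evidence of binding in these cells.

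Library totals were between 17022369 and 22503094 counts, and member counts between 226 and 24472 per library. Of 12 stellate markers, 10 reached 1 CPM, with LRAT at 0 and DES at no more than 11 counts. Their list summed to 4950 CPM with BDS4, 7662 with RVX-208, 8885 with TGF-β alone and 5677 in the control. Of the 10, 1 was called higher and 5 lower with BDS4 against TGF-β alone, against 14.5% and 17.7% of all genes. With TGF-β against Control, 5 were called higher and 0 lower, against 5.32% and 4.37% of all genes. Hepatocyte markers summed to between 1.72 and 3.89 CPM, with APOA2, TTR and CYP3A4 at 0 in every library, and endothelial markers to between 1.57 and 3.26 CPM. Macrophage and leukocyte markers summed to between 11.8 and 29.4 CPM, with MARCO at 0 and PTPRC at no more than 4 counts. Of 5 cholangiocyte markers, SOX9 and KRT7 reached 1 CPM and both were called lower with BDS4 than with TGF-β alone. Their list summed to 24.3 CPM with BDS4, 51.6 with RVX-208, 105 with TGF-β alone and 57.5 in the control, and EPCAM had no more than 4 counts. The part of these markers in the members' values was not tested. Values below are CPM after TMM scaling, and brackets hold 95% intervals that cover counting error only. With 1 library per group no difference could be compared with the variation between cultures, and no test was run. The rule for a call was a ratio of at least 2 in either direction with an interval excluding 1. In RNA from whole cultures, fewer cells with a transcript and less of it per cell cannot be told apart.

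Members spanned a narrower range over the 4 libraries than the median gene. The ratio of the highest to the lowest library had a median of 1.5 over the members and 1.88 over all 16099 genes. It stayed within 2-fold for 31 of 37 members (83.8%), against 54.0% of all genes, and within 1.5-fold for 19 members (51.4%), against 28.9%. Low counts widen this ratio, and expression level was not matched here. The BDS4 library held the highest value of 13 members and the lowest of 17, so that it was an extreme for 30 of 37 members and for 12578 of all 16099 genes. Summed over the members, the level was 4772 CPM with BDS4, 4422 with RVX-208, 4066 with TGF-β alone and 4124 in the control. Of it, the 5 genes listed as abundant nucleolar proteins held 2443 CPM with BDS4 and 1999 with RVX-208. They held 1668 with TGF-β alone and 1754 in the control. That name is a list label: with BDS4, NCL had 1200 CPM and NPM1 844, but LYAR had 45.4. By length-scaled level (FPKM) with BDS4, DDX21 ranked 19 of 37, behind FBL (3) and NHP2 (7), which are not in the group. The 32 other members summed to 2329 CPM with BDS4, 2423 with RVX-208, 2398 with TGF-β alone and 2371 in the control, so their sum was not higher with BDS4.

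By length-scaled level, nucleolin led the module. NCL stood at 57.4 FPKM with BDS4, 49.8 with RVX-208, 43.0 with TGF-β alone and 44.0 in the control, where FBL was higher at 45.6 FPKM. MXI1 was the lowest member in every library, between 0.389 and 0.786 FPKM, and MYC itself lay between 0.815 and 2.68 FPKM. RRS1 ranked 18 of 37 with BDS4 and 6 with TGF-β alone, and GAR1 ranked 23 and 11. NOP56 ranked 9 with BDS4 and 19 with TGF-β alone, and POLR1E 12 and 22. No other member moved by as many places between these libraries.

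**Figure D1:**
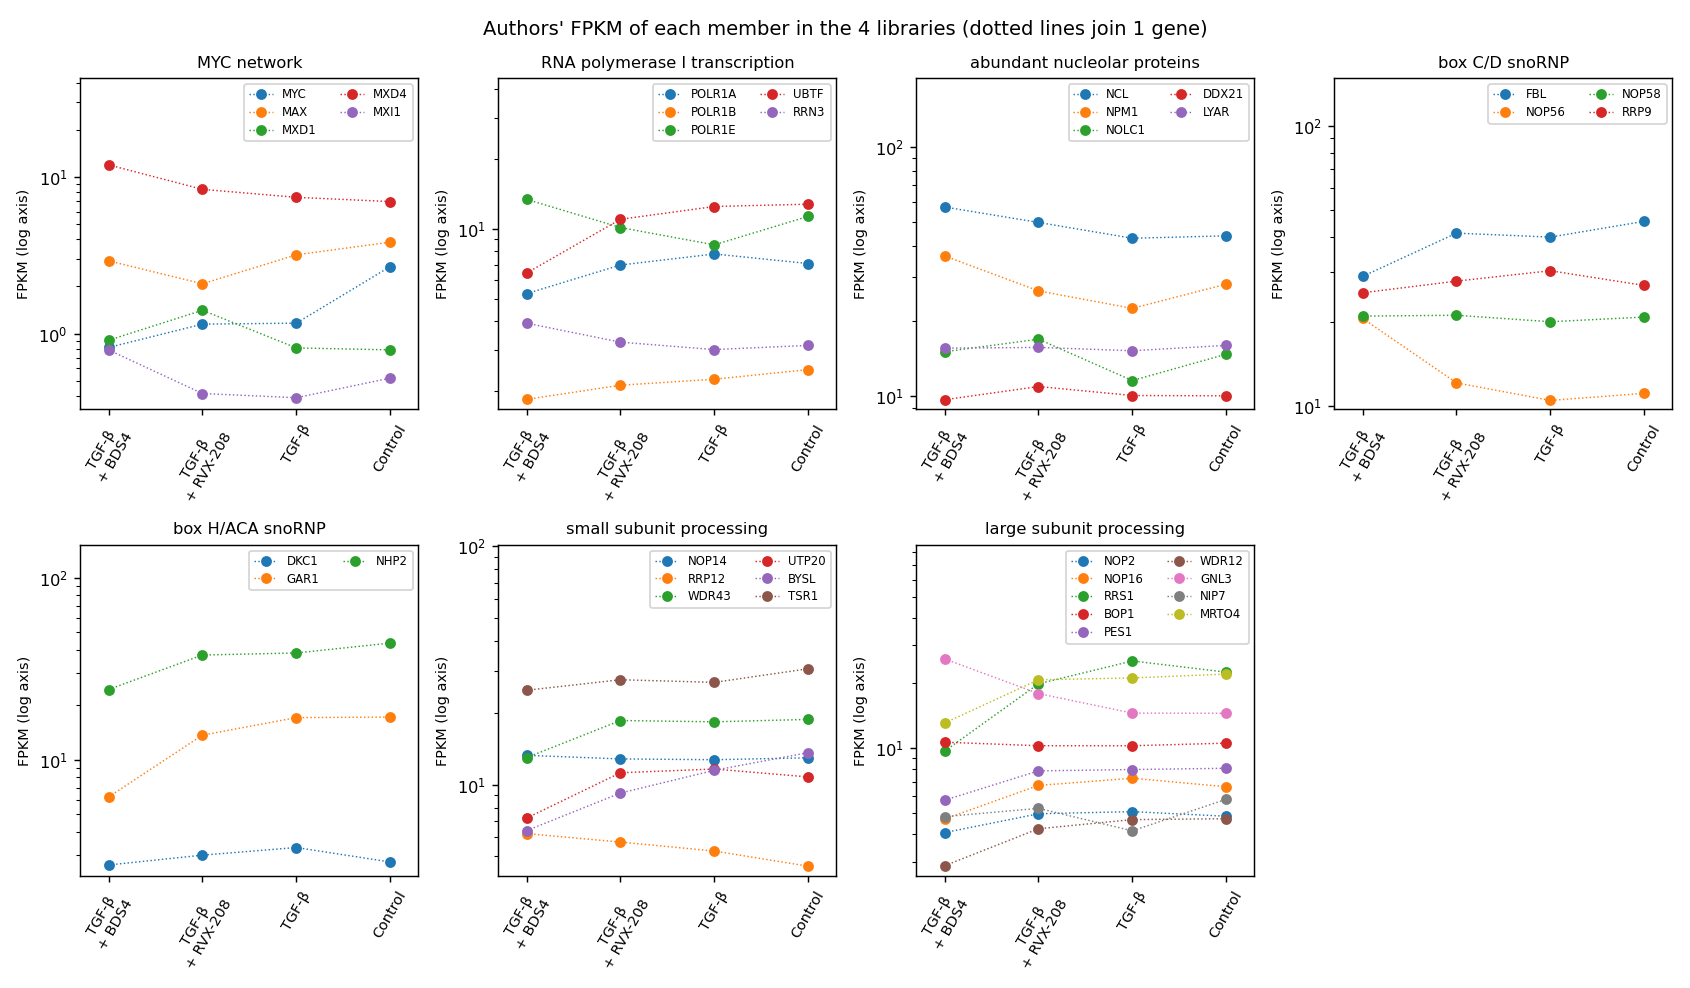
Length-scaled level (the authors' FPKM, log axis) of the 37 members in the 4 libraries, 1 panel per role, with each point 1 library and dotted lines joining 1 gene. NCL, the highest member in the BDS4 library, stands at 57.4 FPKM there and MXI1, the lowest, at 0.786 FPKM.

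MYC was the only member called in the comparison of TGF-β with Control. It was 1 of 37 members called lower, against 4.37% of all genes, with 0 called higher, against 5.32% of all genes. Its level was 12.6 CPM with BDS4, 16.9 CPM with RVX-208, 16.8 CPM with TGF-β alone and 36.6 CPM in the control. The 3 libraries with TGF-β all lay under the control, and their counting intervals did not reach the control's. MYC was 2.19-fold lower (1.93 to 2.48) with TGF-β alone than in the control, 2.17-fold lower (1.9 to 2.49) with TGF-β + RVX-208 and 2.92-fold lower (2.54 to 3.37) with TGF-β + BDS4. Set against TGF-β alone, MYC was 1.33-fold lower (1.14 to 1.57) with BDS4. With RVX-208 the ratio was 1.01-fold (0.859 to 1.18), with an interval that includes 1.

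MAX, the shared partner, had 57.7 CPM with BDS4, 39.3 CPM with RVX-208, 58.8 CPM with TGF-β alone and 67.4 CPM in the control. The RVX-208 library was the low one, 1.5-fold lower (1.36 to 1.65) than TGF-β alone, and BDS4 and TGF-β alone had overlapping intervals. MXD4, an E-box repressor of the MXD family, had 114 CPM with BDS4, 75.5 CPM with RVX-208, 65.8 CPM with TGF-β alone and 58.8 CPM in the control. It was 1.73-fold higher (1.62 to 1.84) with BDS4 and 1.15-fold higher (1.06 to 1.24) with RVX-208 than with TGF-β alone.

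MXI1, a MAX-binding repressor, had 34.3 CPM with BDS4, 17.2 CPM with RVX-208, 15.9 CPM with TGF-β alone and 20.1 CPM in the control. The BDS4 library stood above the others by 2.16-fold (1.9 to 2.47) against TGF-β alone, which met the rule, and by 1.99-fold (1.73 to 2.29) against RVX-208, which fell just short of it. MXI1 (ENSG00000119950) lies at chr10:110207605-110287365 on the plus strand (GRCh38, GENCODE 29). MXD1, another repressor of the family, was highest with RVX-208. Its values were 12.3 CPM with BDS4, 18.2 CPM with RVX-208, 10.2 CPM with TGF-β alone and 9.46 CPM in the control, and the ratio to TGF-β alone was 1.78-fold (1.49 to 2.12) with RVX-208 and 1.2-fold (0.996 to 1.44) with BDS4. MXD1 shares 3.73% of its exon bases with SNRNP27 on the same strand, a gene with 725 to 1072 counts per library where MXD1 had 226 to 306.

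**Figure D2:**
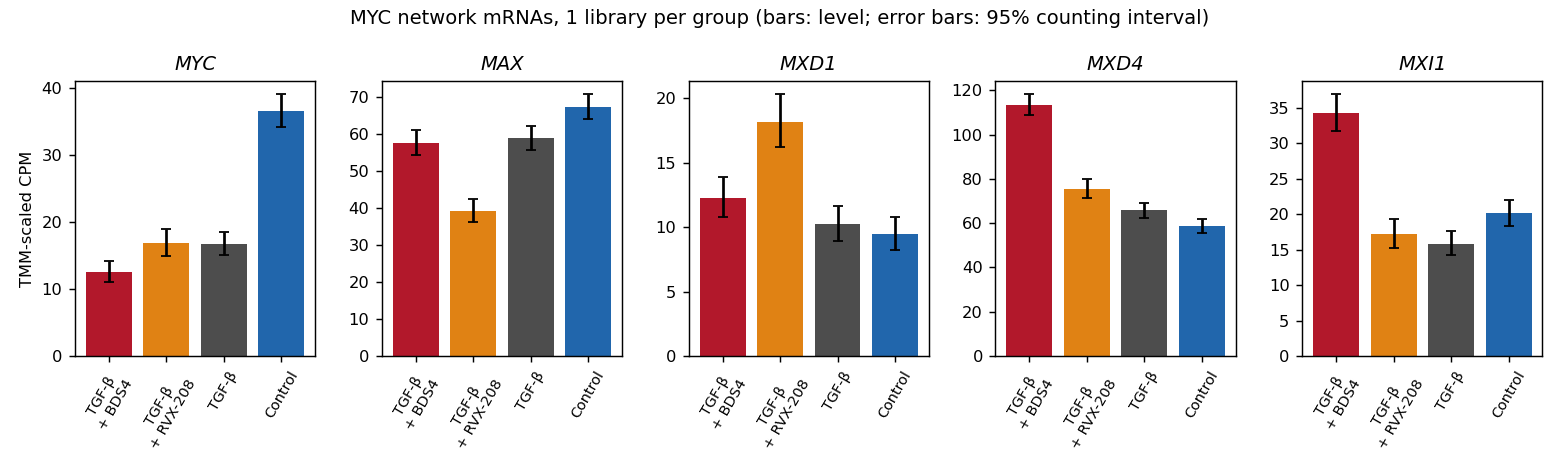
TMM-scaled CPM of MYC, MAX and the repressors MXD1, MXD4 and MXI1 in the 4 libraries, with bars for the level and error bars for the 95% counting interval. MYC is highest in the control at 36.6 CPM, and MXI1 is highest with BDS4 at 34.3 CPM.

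Over all 37 members, BDS4 with TGF-β against TGF-β alone gave 2 called higher, MXI1 and NOP56, where 14.5% of all genes were called higher. It gave 2 called lower, GAR1 and RRS1, where 17.7% of all genes were called lower. Both shares of members (5.41%) were under the share of all genes. At a ratio of at least 1.5, 6 members were higher (MXD4, MXI1, POLR1E, NPM1, NOP56 and GNL3) against 24.5% of all genes, and 7 were lower (UBTF, GAR1, UTP20, BYSL, RRS1, WDR12 and MRTO4) against 26.5%. The interval excluded 1 for 33 members, above 1 for 15 and below 1 for 18 (40.5% and 48.6%, against 39.4% and 39.5% of all genes). The median log2 ratio was -0.03 over the members and -0.01 over all genes. The members lay on both sides of TGF-β alone. Beside them, 5 long non-coding RNAs were read: MALAT1, NEAT1, KCNQ1OT1, MEG3 and NORAD. With BDS4, 5 of 5 were called higher (median 1.5), against 14.5% of all genes. With RVX-208, 2 of 5 were called higher, against 2.94% of all genes. Mitochondrial ribosomal RNA stood at 9574 CPM with BDS4, against 2450 CPM with TGF-β alone. The part of these shifts in the members' values was not tested.

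In RNA polymerase I transcription, UBTF, which binds the ribosomal RNA gene promoter, was the lower one and POLR1E, a subunit of the polymerase, the higher one. UBTF had 99.9 CPM with BDS4, 162 CPM with RVX-208, 181 CPM with TGF-β alone and 176 CPM in the control, and was 1.81-fold lower (1.71 to 1.91) with BDS4 than with TGF-β alone. POLR1E had 44.2 CPM with BDS4, 31.9 CPM with RVX-208, 26.3 CPM with TGF-β alone and 33.2 CPM in the control, and was 1.68-fold higher (1.51 to 1.87) with BDS4. Neither met the 2-fold rule. POLR1A, the largest catalytic subunit, and POLR1B, the second catalytic subunit, had log2 ratios of -0.47 and -0.19. RRN3, the factor that brings the polymerase to its promoter, had a log2 ratio of 0.47, which became 0.33 when the counts of its 5 pseudogene rows were added.

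Among the 5 genes listed as abundant nucleolar proteins, 5 of 5 ratios lay above 1 with BDS4, against 49.6% of all genes. Of these, 4 had an interval above 1 (3 under each other scaling), against 39.4% of all genes. None was called, against 14.5% of all genes called higher and 17.7% lower. With RVX-208 too, 5 of 5 ratios to TGF-β alone lay above 1, against 49.8% of all genes. An interval above 1 was found for 4 of them, against 27.0% of all genes. Nucleolin (NCL), which binds pre-rRNA, had 1200.0 CPM with BDS4, 993 CPM with RVX-208, 839.8 CPM with TGF-β alone and 817 CPM in the control. Nucleophosmin (NPM1), a chaperone of ribosome assembly, had 844 CPM with BDS4, 583 CPM with RVX-208, 485 CPM with TGF-β alone and 578 CPM in the control. Both were highest with BDS4, and for NPM1 the RVX-208 and control intervals overlapped. NPM1 was 1.74-fold higher (1.7 to 1.78) and NCL 1.43-fold higher (1.4 to 1.46) with BDS4 than with TGF-β alone. The 49 rows of NPM1 pseudogenes held 21.2% to 21.8% of the combined counts in each library, and the log2 ratio was 0.80 without them and 0.79 with them. NOLC1, a chaperone of snoRNPs, had log2 ratios of 0.48 with BDS4 and 0.58 with RVX-208. The helicase DDX21 (0.04) and the zinc finger protein LYAR (0.13) had the smallest log2 ratios of the group with BDS4, and that of DDX21 turned negative with total counts and with TMM factors from all genes.

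In the box C/D particle, which adds methyl groups to ribosomal RNA, the scaffold protein NOP56 was called higher with BDS4. NOP56 had 305 CPM with BDS4, 172 CPM with RVX-208, 146 CPM with TGF-β alone and 147 CPM in the control, and the ratio to TGF-β alone was 2.1-fold (2.01 to 2.19), a call that ended under scaling by total counts (log2 ratio 0.97). NOP56 (ENSG00000101361) lies at chr20:2652145-2658393 on the plus strand. Its partner in the scaffold, NOP58, had a log2 ratio of 0.17. FBL, the methyltransferase of the particle, had 130.4 CPM with BDS4, 177 CPM with RVX-208, 168 CPM with TGF-β alone and 182 CPM in the control. It was 1.29-fold lower (1.23 to 1.36) with BDS4 and 1.06-fold higher (1.01 to 1.11) with RVX-208 than with TGF-β alone. The RVX-208 interval of FBL included 1 under each other scaling. RRP9, a protein of the U3 particle, had a log2 ratio of -0.16.

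In the box H/ACA particle, which converts uridine to pseudouridine, 3 of 3 members were lower with BDS4 with intervals below 1. Over all genes, 50.4% of ratios and 39.5% of intervals lay below 1. Of the 3, GAR1 was called, and 17.7% of all genes were called lower. With RVX-208 too, 3 of 3 ratios to TGF-β alone lay below 1, against 50.1% of all genes. Of these, 2 had intervals below 1, against 26.7% of all genes, and none was called. GAR1, a core protein, had 16.7 CPM with BDS4, 34.9 CPM with RVX-208, 42.6 CPM with TGF-β alone and 40.8 CPM in the control. It was 2.55-fold lower (2.25 to 2.89) with BDS4 than with TGF-β alone (log2 ratio -1.34, the farthest from 0 of any member in this comparison). The gene (ENSG00000109534) lies at chr4:109815510-109824740 on the plus strand. NHP2, another core protein, had 75.2 CPM with BDS4, 111 CPM with RVX-208, 112 CPM with TGF-β alone and 120.2 CPM in the control, and was 1.48-fold lower (1.39 to 1.58). The pseudouridine synthase DKC1 had a log2 ratio of -0.22.

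Among small subunit factors, BYSL and UTP20 moved most with BDS4, both downward. BYSL, which is needed for maturation of the small subunit, had 28.9 CPM with BDS4, 39.6 CPM with RVX-208, 48.3 CPM with TGF-β alone and 54.6 CPM in the control, and was 1.67-fold lower (1.51 to 1.85) than with TGF-β alone. UTP20, a component of the early processome, had 84.5 CPM with BDS4, 125 CPM with RVX-208, 127 CPM with TGF-β alone and 112 CPM in the control, and was 1.5-fold lower (1.41 to 1.59). The BDS4 library was the lowest for both. In log2 ratios with BDS4 against TGF-β, WDR43, another processome protein, had -0.40, RRP12, which helps export the subunit, 0.34, NOP14 0.16, and TSR1, a late maturation factor, -0.01.

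Among large subunit factors, RRS1 was called lower with BDS4 and GNL3 stood highest. RRS1, which takes part in loading the 5S particle, had 17.7 CPM with BDS4, 34.5 CPM with RVX-208, 43.0 CPM with TGF-β alone and 36.3 CPM in the control. It was 2.44-fold lower (2.16 to 2.76) with BDS4 than with TGF-β alone. GNL3 (nucleostemin), a nucleolar GTPase, had 158 CPM with BDS4, 104 CPM with RVX-208, 82.8 CPM with TGF-β alone and 78.7 CPM in the control, and was 1.9-fold higher (1.8 to 2.02). PES1, BOP1 and WDR12 form 1 complex, the PeBoW complex. Their log2 ratios were -0.37, 0.15 and -0.61, with intervals below 1 for PES1 and WDR12 and above 1 for BOP1. On the same scale MRTO4, a stalk assembly factor, had -0.59, NOP16 -0.53, the RNA methyltransferase NOP2 -0.22 and NIP7 0.32. Another gene on the same strand covers 54.4% of NOP2's exon bases, so its value is uncertain. Counting same-strand neighbours with the members changed no member's call. Exons of 13 members overlap a gene on the other strand. Reads of such pairs cannot be told apart if strand was not used in counting. The partner of MXI1 had 0 to 2 counts per library and those of UBTF 72 to 90, under the members' own counts. The partner of GNL3 had 498 to 1323 counts, where GNL3 had 1753 to 3218. RMND5B, opposite NHP2, had 1668 counts with BDS4 and 801 with TGF-β alone, where NHP2 had 1533 and 2462. EMC1, opposite MRTO4, had 1797 to 3112 counts, where MRTO4 had 819 to 1434.

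**Figure D3:**
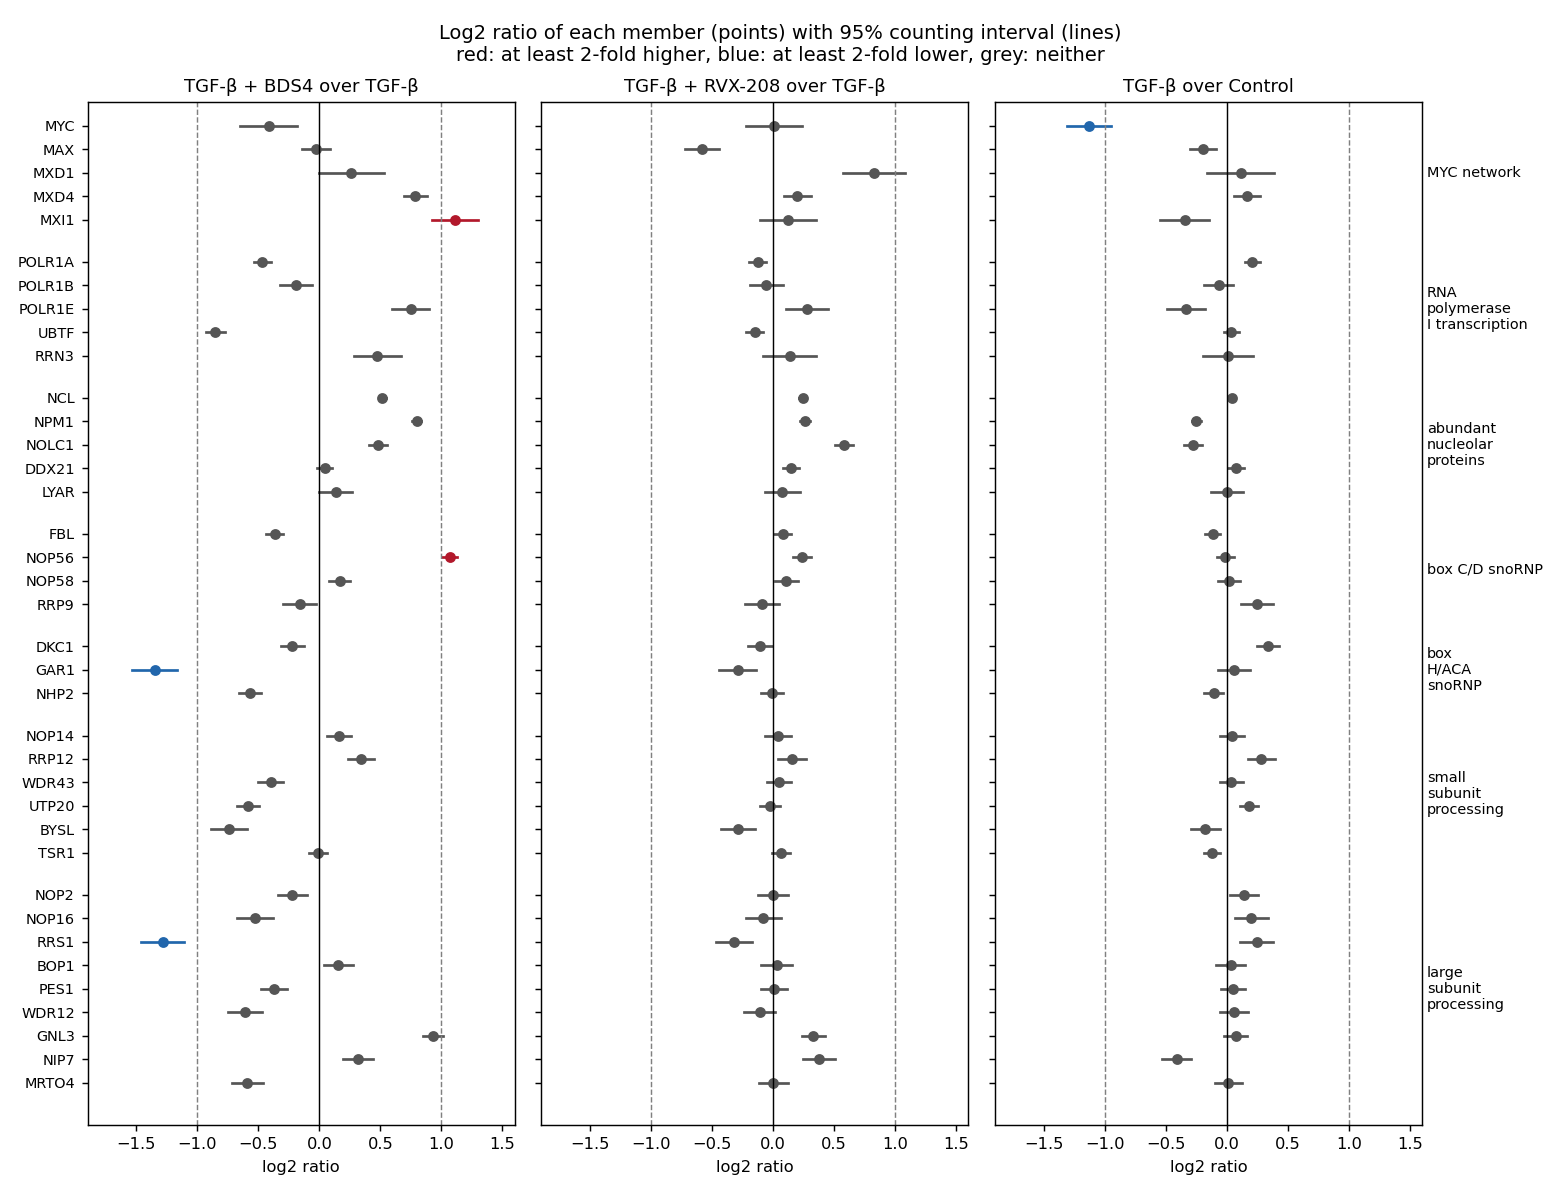
Log2 ratio of each member (points) with its 95% counting interval (lines) for TGF-β + BDS4 over TGF-β, TGF-β + RVX-208 over TGF-β and TGF-β over Control, ordered by role, with dashes at 2-fold. Called members are coloured: MXI1 and NOP56 higher and GAR1 and RRS1 lower with BDS4, and MYC lower with TGF-β.

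With RVX-208 and TGF-β against TGF-β alone, 0 of 37 members were called higher (2.94% of all genes) and 0 lower (5.25%). Log2 ratios ran from -0.58 for MAX to 0.82 for MXD1. The median was 0.04, and 0.00 over all genes. The interval lay above 1 for 13 members and below 1 for 7 (35.1% and 18.9%, against 27.0% and 26.7% of all genes). GAR1 and RRS1, the members called lower with BDS4, had log2 ratios of -0.29 and -0.32 with RVX-208, and NOP56 had 0.24. Both compound comparisons use the same TGF-β library, so their values are not independent. The signs of MYC, PES1 and MRTO4, all within 0.01 of 0 here, turned under each other scaling.

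Set directly against each other at the same dose and time, TGF-β + BDS4 and TGF-β + RVX-208 differed by the rule in 1 member, GAR1, which was 2.09-fold lower (1.82 to 2.39) with BDS4. By direction, 0 members were called higher (11.7% of all genes) and 1 lower (13.1%). RRS1 was 1.95-fold lower (1.71 to 2.23), and MXI1, GNL3 and NOP56 had log2 ratios of 0.99, 0.60 and 0.83. MXD1 (-0.56) lay lower with BDS4 and MAX (0.55) higher. The median was -0.11 over the members and -0.01 over all genes. Intervals included 1 for 6 members, and with 1 library each these do not show that the compounds act alike there.

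With TGF-β against Control, the 36 members other than MYC had log2 ratios between -0.41 (NIP7) and 0.34 (DKC1), and the median over the members was 0.04, which turned to -0.03 with total counts. Among RNA polymerase I genes POLR1A had 0.21 and POLR1E -0.33. Under total-count scaling 11 of the 37 members changed sign, none of them MYC.

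Against Control, TGF-β + BDS4 had 2 members called higher, NOP56 and GNL3 (14.9% of all genes), and 3 lower, MYC, GAR1 and RRS1 (18.2%). GNL3 stood at the threshold, with a ratio of 2.0-fold (1.89 to 2.12), and lost its call under each other scaling. NOP56, at 2.08-fold (2.0 to 2.17), lost it with total counts (log2 ratio 0.89) and with TMM factors from all genes (0.99). TGF-β + RVX-208 had 0 members higher (5.39%) and 1 lower, MYC (6.88%).

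Members also differed in gene structure and promoter sequence. Introns of 7 members hold snoRNA genes: NCL, NOP56, NOP58, DKC1, WDR43, TSR1 and GNL3. Their median log2 ratio with BDS4 against TGF-β was 0.17, and -0.18 for the other 30. With RVX-208 against TGF-β these medians were 0.11 and 0.01. NOP56 hosts SNORD86, SNORD56, SNORD57, SNORD110 and SNORA51, and GNL3 hosts SNORD19 and SNORD69. With BDS4 against TGF-β, the 14 members with CACGTG in a promoter window had a median of -0.29, with 9 intervals below 1 and 4 above. The 16 with a window and no CACGTG had a median of -0.02, with 7 intervals below 1 and 6 above. Over all genes, 39.5% of intervals lay below 1 and 39.4% above. With RVX-208 against TGF-β the medians were 0.03 in both sets. These splits were made after the values were seen, and the sets differ in more than the motif. GAR1 has the E-box, and NOP56 and MXI1 have none in these windows.

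Genes of the same pathway outside the module were read from lists of their own. Of 140 other ribosome biogenesis genes, which include TBP, POLR2E, POLR2F, POLR2H, POLR2K and POLR2L, 133 passed the CPM filter. With BDS4 against TGF-β, 3 of them were called higher and 8 lower (2.26% and 6.02%, against 14.5% and 17.7% of all genes), with a median of -0.04. Most were not called, and the genes named next are among those that were. DDX54, a helicase of large subunit assembly, had 37.0 (BDS4), 109 (RVX-208), 123 (TGF-β) and 129 CPM (control). SBDS, which releases a late factor from the large subunit, had 158 (BDS4), 108 (RVX-208), 51.2 (TGF-β) and 54.3 CPM (control). DDX54 was thus lowest, and SBDS highest, with BDS4. WDR18 and DDX47 had log2 ratios of -1.70 and -1.54. With RVX-208, 1 was called, SBDS (log2 ratio 1.08, higher), which is 0.752% of the list, against 2.94% of all genes. With TGF-β against Control, 1 was called higher (0.752%, against 5.32% of all genes), the polymerase I subunit POLR1G (1.40). POLR1G was also called lower with BDS4 against TGF-β (-1.16).

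Ribosomal protein genes, which encode the protein part of the ribosome, lay mostly above TGF-β alone with BDS4. Of 79 genes, 71 had a ratio above 1 against TGF-β alone (89.9%, against 49.6% of all genes), 69 with an interval above 1 (87.3%, against 39.4%), and the median log2 ratio was 0.42. RPS20 and RPS16 were called higher (log2 ratios 1.08 and 1.04) and 0 lower, so that 2.53% of the list was called higher, against 14.5% of all genes. Their summed level was 26767 CPM with BDS4, 20514 with RVX-208, 20068 with TGF-β alone and 20703 in the control. Under total-count scaling the median was 0.32 and 62 intervals stayed above 1. With RVX-208 the median was 0.00, with 31 intervals above 1 and 20 below (39.2% and 25.3%, against 27.0% and 26.7% of all genes). With TGF-β against Control it was -0.09, with 55 of 79 ratios below 1 (69.6%, against 51.1% of all genes). Many ribosomal protein genes have processed pseudogenes, and the sources used here do not say how shared reads were counted.

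MYC targets outside ribosome biogenesis had log2 ratios from -2.15 to 2.22 with BDS4. Of 29 measured of 30, 4 were called higher and 1 lower with BDS4 against TGF-β (median -0.09), which is 13.8% and 3.45% of the list, against 14.5% and 17.7% of all genes. ODC1, the first enzyme of polyamine synthesis, had 1346 (BDS4), 493 (RVX-208), 289 (TGF-β) and 363 CPM (control). TFRC, the transferrin receptor, had 1048 (BDS4), 461 (RVX-208), 316 (TGF-β) and 331 CPM (control). NME1, a nucleoside diphosphate kinase, had 28.4 (BDS4), 119.9 (RVX-208), 126 (TGF-β) and 139 CPM (control). ODC1 and TFRC were highest, and NME1 lowest, with BDS4. With RVX-208, 0 of the 29 were called (median 0.02), against 2.94% of all genes called higher and 5.25% lower. With TGF-β against Control, 1 of the 29 (3.45%) was called higher, against 5.32% of all genes. It was FASN, a fatty acid synthesis enzyme (log2 ratio 1.6).

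RNA polymerase III genes, which serve transfer RNA and 5S ribosomal RNA, had 1 of 20 called in each direction with BDS4 against TGF-β, a smaller share than of all genes. POLR3G, a polymerase subunit, had 143 (BDS4), 49.1 (RVX-208), 39.0 (TGF-β) and 66.2 CPM (control), and GTF3C6, a subunit of the factor that recognises the promoter, 6.33 (BDS4), 25.5 (RVX-208), 44.1 (TGF-β) and 55.3 CPM (control). Other partners of MYC, MAX and MLX had 1 of 15 called with BDS4 (6.67%, higher), against 14.5% of all genes. This was MYCL, at 6.82 (BDS4), 3.74 (RVX-208), 2.72 (TGF-β) and 3.18 CPM (control). MYCL, a relative of MYC, was highest with BDS4.

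**Figure D4:**
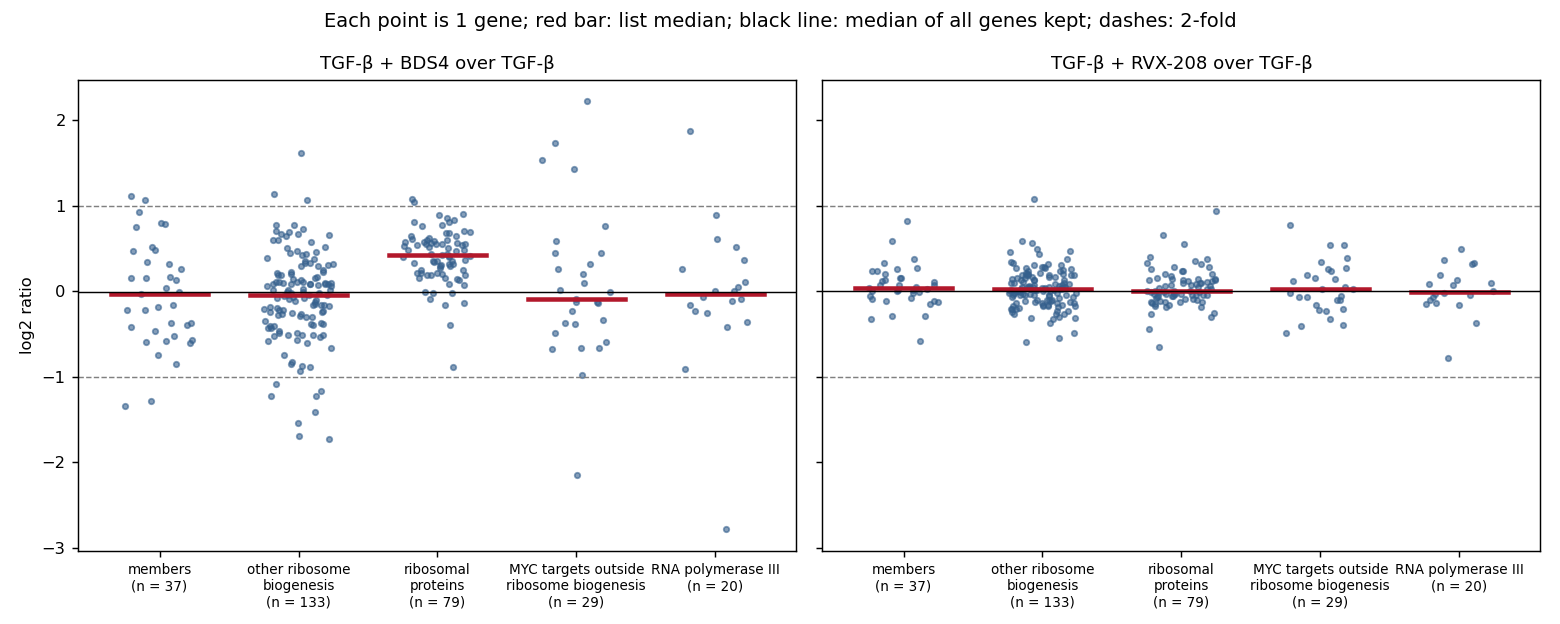
Log2 ratio of each gene (points) in the module and in 4 other lists for TGF-β + BDS4 over TGF-β and TGF-β + RVX-208 over TGF-β, with red bars for the list medians, a black line for the median of all genes and dashes at 2-fold. With BDS4 the ribosomal proteins have a median of 0.42 and the members -0.03, and with RVX-208 they have 0.00 and 0.04.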

How the data were processed

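Per the submitters' processing notes, reads were base-called with CASAVA 1.8 and aligned to GRCh38 with TopHat2 2.0.6. The authors deposited raw whole-number counts per gene and FPKM values, and the series' design text names StringTie 1.3.0 for the FPKM. No counting program, annotation or strand setting is named in the sources used here. Counts gave the comparisons, and the deposited FPKM only levels between genes. TMM factors from edgeR 4.0.16 (R 4.3.3) were 0.943 for BDS4, 0.989 for RVX-208, 1.01 for TGF-β and 1.06 for Control, computed on the genes kept (1 CPM or more in any library). Ratios have 95% conditional exact (Clopper-Pearson) intervals, and log2 ratios a prior count of 2. Calls need a ratio of at least 2 either way and an interval that excludes 1, over all 16099 genes. The rule was run on simulated counts that held known fold changes and counting error only. That run cannot show how many calls variation between cultures would give. Other scalings (DESeq2 1.42.0 size factors, upper quartile, total counts), a filter of 5 CPM, no filter, a ratio of 1.5, a prior count of 0.5 and summed overlapping genes were tried, and TMM over all genes was added after the data were seen. Positions, overlaps and snoRNA hosts came from GENCODE 29. Values in all libraries are given for the MYC network, every member called, and the 2 members of each role with the largest log2 ratio with BDS4. Of other lists, up to 3 called genes with the largest ratios are named. The members and lists were chosen with earlier results of these data known. Calculations used scipy 1.17.1, pandas 2.3.3 and numpy 2.4.6 under Python 3.11.15, with matplotlib 3.10.9 for plots.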

Additional observations from a re-analysis of the deposited data

Results flagged for a closer look

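FBL, the methyltransferase of the box C/D particle, was the 1 member whose counting intervals lay on opposite sides of 1 with the 2 compounds. The RVX-208 interval began at 1.005 with TMM scaling and included 1 under each other scaling. The log2 ratio of FBL to TGF-β alone was -0.37 with BDS4 and 0.077 with RVX-208. Both ratios share the TGF-β library, neither met the 2-fold rule, and with 1 library per group the difference was not tested against variation between cultures.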

How the results depend on the processing

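No ratio that met the rule changed sign under another scaling, and GAR1, RRS1 and MXI1 with BDS4 against TGF-β and MYC against Control kept their calls under all scalings. Ratios of called members in comparisons where they were not called could turn, as with GAR1 for TGF-β against Control under total counts and MYC for RVX-208 against TGF-β. Total-count scaling moved the median of all genes with BDS4 against TGF-β to -0.11. It left 1 member higher in that comparison, gave 2 lower with BDS4 against RVX-208 (median -0.18, RRS1 at -1.03) and 0 higher with BDS4 against Control (median -0.25), with BYSL then called lower (-1.09). Members called higher with BDS4 against Control numbered 1 with DESeq2 size factors, 1 with upper-quartile factors and 0 with TMM from all genes, since NOP56 and GNL3 lie near 2-fold.
At a ratio of at least 1.5, 6 and 7 of 37 members were called higher and lower for BDS4 against TGF-β. All genes gave 3939 and 4262 (24.5% and 26.5%). For RVX-208 against TGF-β they were 1 and 0 (all genes 1063 and 1682, 6.60% and 10.4%). For BDS4 against RVX-208 they were 4 and 4 (3388 and 3513, 21.0% and 21.8%). For TGF-β against Control they were 0 and 1 (1627 and 1447, 10.1% and 8.99%). For BDS4 against Control they were 5 and 6 (4037 and 4430, 25.1% and 27.5%). For RVX-208 against Control they were 1 and 2 (1727 and 2059, 10.7% and 12.8%). At 5 CPM fewer genes were tested. Genes called were then 267 higher and 391 lower with RVX-208 against TGF-β, 1163 higher with BDS4 against RVX-208, 517 and 346 with TGF-β against Control, and 550 and 552 with RVX-208 against Control.
No paired analysis was possible because each group has 1 library, and for the same reason no library could be left out. A floor of 3 counts is 0.126 to 0.178 CPM, under the level of every member. Variation between cultures could not be estimated.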
